A study of Mus musculus with 24 samples.

Results

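The first postnatal week of the mouse cochlea was described from 12 of the 24 arrays of the series, all those of postnatal days 3 and 7 (P3 and P7), chosen by the age that their titles give. The 6 arrays of P7, 3 of α9-/- and 3 of wild type cochleae, were set against the 6 arrays of P3, again 3 of each genotype. α9-/- mice lack Chrna9, the gene of the α9 subunit of the nicotinic acetylcholine receptor through which efferent nerve fibres act on hair cells. The deletion is constitutive and is carried in every cell. Mice of both genotypes and ages were a 129S6 x CBA/CaJ hybrid bred back to CBA/CaJ. Each array carried total RNA from the pooled cochleae of several mice of 1 age and genotype, so that the pool was the replicate and the spread between arrays was that between pools. The Chrna9 probe set was dim on all 12 arrays, between 4.90 and 6.10 on the log2 scale, and its levels overlapped between the genotypes. Its place relative to the deleted stretch of the gene was not looked up, so that it did not check the genotype labels.

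A mouse is born deaf. In the first postnatal week its cochlear hair cells and supporting cells have left the cell cycle, nerve endings on the hair cells are being sorted, and the tectorial membrane that covers the hair bundles is being laid down. The fluid spaces, the spiral ligament that borders them and the bony capsule mature over the same days, and hearing starts in the following week.

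The label was checked against 17 measured marker genes of cochlear cells. Of these, 10 lay above the median gene on all 12 arrays, where the median gene of an array was between 7.71 and 7.95 on the log2 scale. They included Otor, a secreted protein of the spiral limbus and ligament, at 13.32 ± 0.11 at P7 and 13.72 ± 0.14 at P3, and Tectb, a protein of the tectorial membrane, at 12.17 ± 0.10 at P7 and 12.58 ± 0.28 at P3 (SD, n = 6 each). Of the hair cell markers, the motor protein gene Myo6 was at 9.62 ± 0.06 at P7 and 9.76 ± 0.26 at P3, while the transcription factor gene Pou4f3 stayed below the median gene, at 5.40 ± 0.40 at P7 and 5.08 ± 1.15 at P3 (SD, n = 6 each). All 6 measured markers of the tectorial membrane and of fibrocytes lay above the median gene on every array, and of the 4 hair cell markers Myo6 did. Since probes differ in brightness, a place above or below the median gene is only a rough check of the label.

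The arrays of the 2 ages were not of one technical kind. On 2 of the P3 arrays, wild type replicate 1 and α9-/- replicate 2, the control probe sets at the 3′ end of Gapdh exceeded those at its 5′ end by 7.57 and 6.67 on the log2 scale. A large gap of this kind is a measure of incompletely copied or degraded RNA. On the other P3 arrays the gap was between -0.10 and -0.05, and on the 6 P7 arrays it was between -0.10 and 1.19. The mean gap was 0.44 ± 0.47 at P7 and 2.32 ± 3.73 at P3 (SD, n = 6 each), a difference of -1.88 (exact permutation test, two-sided, p = 0.446). Without those 2 arrays the difference was 0.52 (p = 0.0619 by the same exact test). They were singled out by this same gap, so that the turn of sign follows from their choice. The second p therefore cannot decide whether the ages differ in the gap. The counts over all genes are given with and without the 2 arrays, and the count of a gene list without them is given beside it where it differs. The signal of the poly-A control mixture was above 8 on the log2 scale on 6 arrays, between 8.36 and 9.43. At P7 these were replicate 2 of each genotype, and at P3 replicates 1 and 2 of wild type and 2 and 3 of α9-/-. They form the set with poly-A transcripts, which includes the 2 P3 arrays of low Gapdh 5′ signal. The other 6 arrays form the set without. That second set was mixed. At P7, replicate 1 of wild type read 7.10 and replicate 3 of α9-/- read 7.21, whereas its remaining arrays read between 4.61 and 5.19. Whether those 2 arrays carried some of the mixture was not tested. Because the sets also hold different pools, a gap between them cannot be laid to the mixture alone. All 210 called genes chosen for description kept the sign of their difference in both sets. Their calls were made on these same arrays, which favours an unchanged sign. The difference in each set is given below for a gene where the sets lay more than 1 log2 unit apart, and the median in each set for a list where they lay more than 0.5 apart. Pairs of arrays correlated at between 0.971 and 0.992 within P7 and between 0.961 and 0.992 within P3.

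**Figure D1:**
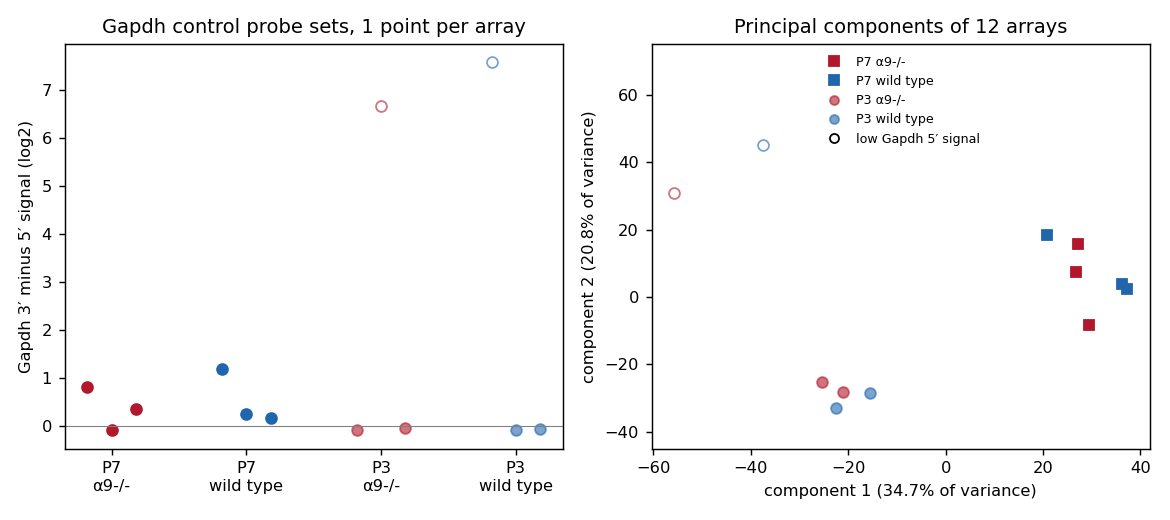
Left, Gapdh control gap (3′ minus 5′ signal, log2) of each array by group, with the P7 groups left of the P3 groups; right, the first 2 principal components of the 12 arrays over 18193 genes. The gap was 7.57 and 6.67 on the P3 arrays drawn open and at most 1.19 elsewhere, and component 1 (34.7% of the variance) separates P7 from P3 while component 2 (20.8%) sets the open arrays apart from the other P3 arrays.

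Across the 18193 genes tested, with genotype as a block, 1011 genes were higher at P7 than at P3 (5.56%) and 1428 were lower (7.85%), by limma at a Benjamini-Hochberg adjusted p under 0.05. Beyond a log2 difference of 1, a change of more than 2-fold, 240 genes were higher (1.32%) and 452 were lower (2.48%). The median gene differed by 0.00, and the quartiles of all genes lay at -0.21 and 0.22 on the log2 scale. All 6 P7 arrays lay above all 6 P3 arrays for 545 genes (3.00%), and all lay below them for 977 genes (5.37%). Of the gene lists described below, neutrophil genes had the highest share of risen members, 16 of 17, and sodium channel genes the highest share of fallen members, 8 of 11.

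When the 2 arrays of low Gapdh 5′ signal were left out, 1677 genes were higher (9.22%) and 1428 were lower (7.85%). Of the genes called with all 12 arrays, 866 of 1011 and 1156 of 1428 were called again, none of them in the opposite direction. With the values as the authors scaled them, on which the median gene was 0.11 higher at P7, the split was 1623 higher against 1102 lower. The count of higher genes dropped to 663 without P3 wild type replicate 2.

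Among the called genes whose arrays did not overlap between the ages, those of largest rise were mostly genes of B cell and neutrophil precursors. Vpreb1, the surrogate light chain of the receptor of B cell precursors, had a lowest, median and highest level of 8.0, 8.40 and 9.33 on the P7 arrays, against 4.24, 4.73 and 6.68 on the P3 arrays. It was higher at P7 by 3.47 on the log2 scale (SE 0.37, limma adjusted p = 6.73e-05). The difference was 4.36 on arrays without and 2.76 on arrays with poly-A transcripts. Its P3 median was dim and not shown to lie above background, so that no fold is given. Ngp, a granule protein of neutrophil precursors, lay at 11.04, 11.36 and 12.02 at P7, against 7.55, 8.19 and 8.87 at P3. Every P7 array lay above every P3 array for both genes. Chil3, Lcn2, S100a8 and S100a9, proteins of neutrophil granules and cytosol, and Stfa2l1, a stefin of myeloid cells, differed by between 2.70 and 3.14 on the log2 scale. Pou2af1, a B cell coactivator, rose by 2.92 and Rhag, an ammonia channel of the red cell membrane, by 2.69 (3.40 without and 2.04 with poly-A transcripts). Stfa2l1 and Chil3 have near-identical family members, so that their probe sets may also read those genes.

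The only gene among the 10 of largest rise that was not a gene of blood cells was Otos. It encodes otospiralin, a small protein of the fibrocytes of the spiral ligament and limbus. Its level was 12.12, 12.34 and 12.81 at P7 (lowest, median and highest), against 9.05, 9.80 and 10.11 at P3, with no overlap. The difference was 2.74 (SE 0.20, limma adjusted p = 4.75e-06), or 6.67-fold. Over the 4 ages of the series, Otos averaged 9.70 ± 0.42 at P3, 12.44 ± 0.30 at P7, 13.92 ± 0.31 at P13 and 13.81 ± 0.33 at P60 (SD, n = 6 each).

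Chosen in the same way, the genes of largest fall were mostly genes of neurons. Grm5, a metabotropic glutamate receptor, lay at 3.05, 3.12 and 3.52 at P7, against 5.73, 6.56 and 8.31 at P3 (lowest, median and highest), a log2 difference of -3.45 (SE 0.27, limma adjusted p = 6.43e-06). Dcx, the microtubule protein doublecortin of immature neurons, lay at 4.93, 5.20 and 6.23 at P7, against 8.10, 8.35 and 9.13 at P3, a difference of -3.12 (SE 0.19, limma adjusted p = 2.58e-06). Neither gene had a P7 array within the range of the P3 arrays. Atoh7, a factor of retinal ganglion cell fate, and Neurod6, a factor of forebrain neurons, each fell by 2.84. Pcdh8, a protocadherin, Syt16, a synaptotagmin, Nol4, Fgf14, which binds sodium channels, Grik1, a kainate receptor subunit, and Gabra5, a GABA receptor subunit, fell by between 2.44 and 2.82. The mean levels of Neurod6, Syt16, Grm5, Gabra5, Fgf14 and Grik1 at P7 were all under 4 on the log2 scale. These levels were among the dimmest on the arrays and were not shown to lie above background, so that no fold is given for these genes.

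**Figure D2:**
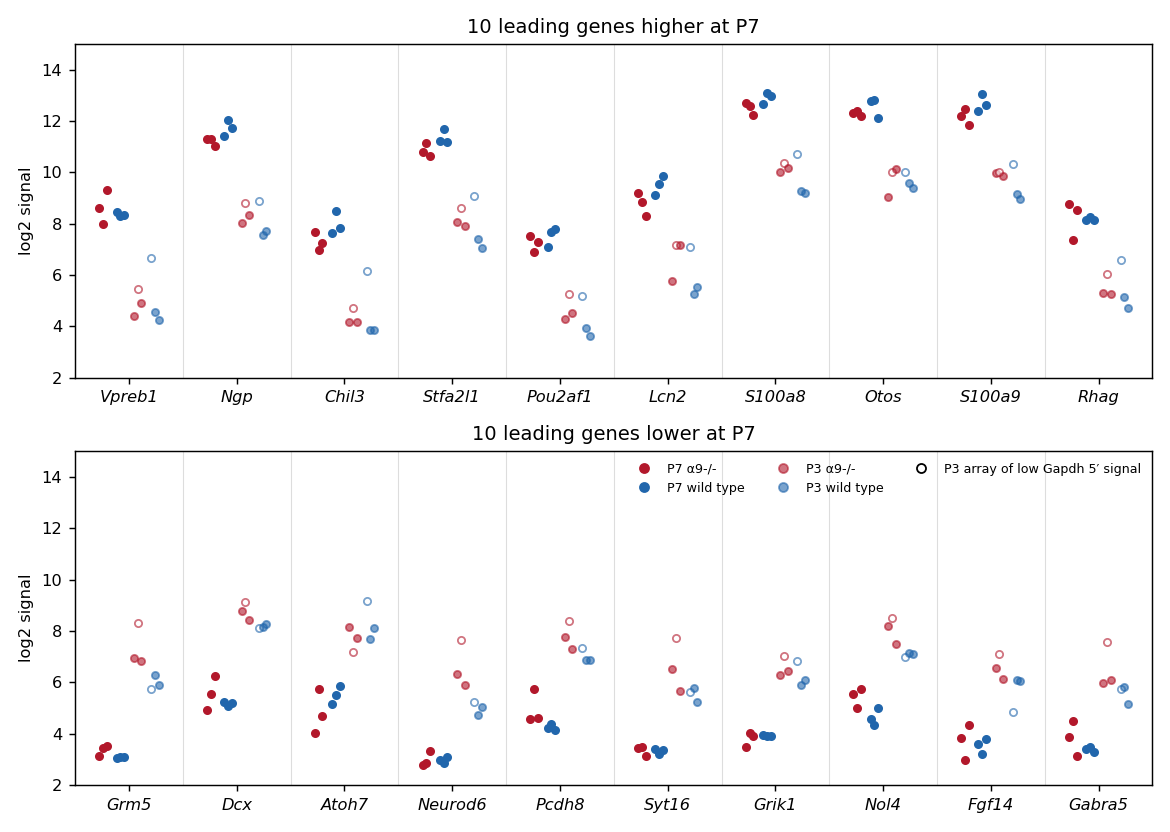
Signal (log2) of the 10 genes of largest rise (above) and the 10 of largest fall (below), 1 point per array, with P7 points left of P3 points and the 2 P3 arrays of low Gapdh 5′ signal drawn open. No P7 array overlaps a P3 array in any of these genes, which was a criterion of their choice.

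The gene lists are described by how many of their measured members rose or fell, beside 5.56% and 7.85% of all genes. Some lists share members. Where a count leaves out the 2 P3 arrays named above, the shares of all genes are 9.22% and 7.85%. Neutrophil genes, B cell genes, red cell genes, MHC class II genes and osteoblast genes had the largest shares of risen members, and sodium channel, GABA, forebrain, choroid plexus, astrocyte and spiral ganglion neuron genes the largest shares of fallen members. The forebrain and choroid plexus lists were added after the values had been seen, which favours a high share. Because the arrays measure bulk tissue, fewer cells of a type and less RNA per cell cannot be told apart in any of the lists.

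**Figure D3:**
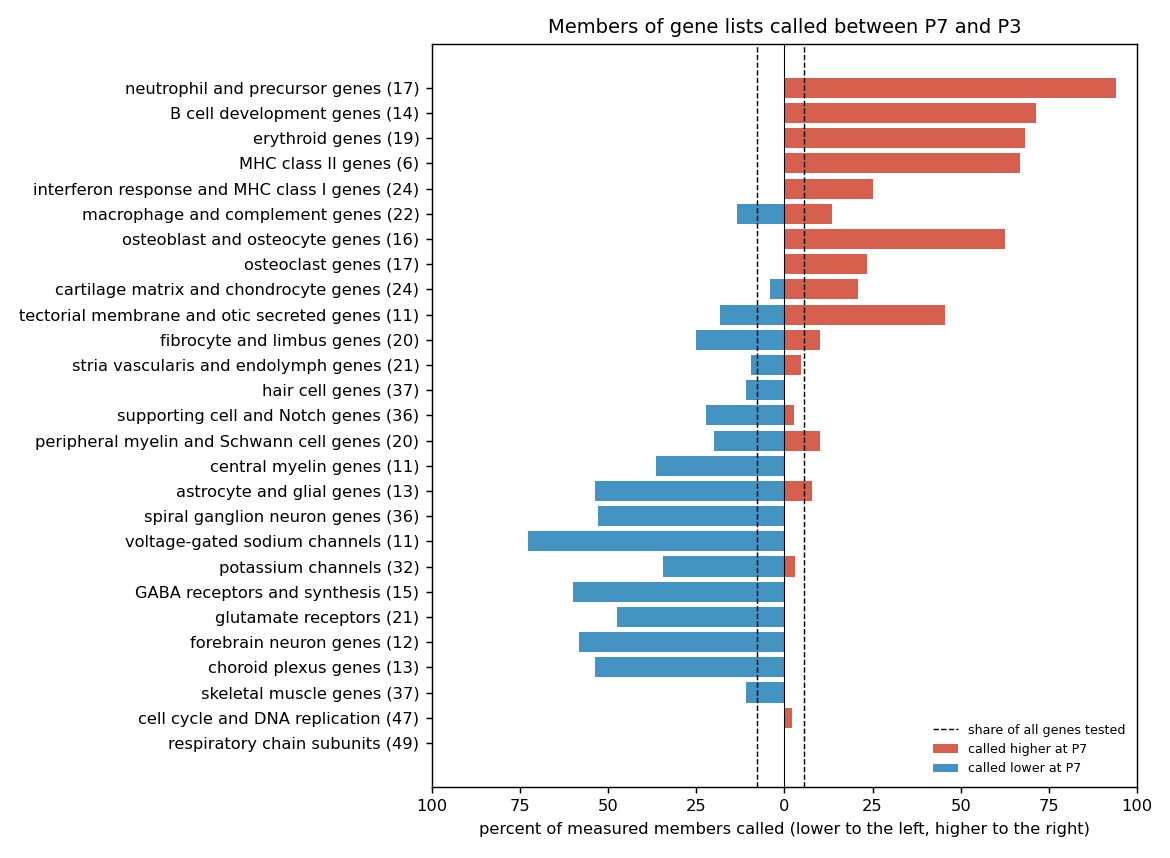
Percent of the measured members of each list (their number in parentheses) that were called higher at P7 (to the right) or lower at P7 (to the left), with the shares of all genes, 5.56% and 7.85%, as dashed lines. Neutrophil genes reach 94.1% higher and sodium channel genes 72.7% lower, and no respiratory chain gene was called.

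Of 17 neutrophil genes, 16 rose (17 without the 2 arrays) and none fell, with a list median of 2.05 against 0.00 over all genes. Camp, the antimicrobial peptide cathelicidin, Mpo, the peroxidase of the primary granules, and Mmp8, the collagenase of the granules, were among them. Mmp8 lay at 7.85, 8.53 and 9.16 at P7, against 5.57, 5.90 and 6.22 at P3. It rose by 2.58 (SE 0.21, limma adjusted p = 7.63e-06) with no overlap of the arrays. The member that did not pass was Mmp9, a gelatinase that osteoclasts also make, at 13.20 ± 0.15 at P7 and 12.85 ± 0.21 at P3 (SD, n = 6 each, limma adjusted p = 0.0593). The mean level of the list was between 8.64 and 9.49 on the P7 arrays, against 6.48 and 7.64 on the P3 arrays. Its median was 1.52 in α9-/- and 2.58 in wild type cochleae, a gap that was not tested, and 2.62 without and 1.72 with poly-A transcripts on the arrays.

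B cell genes rose in 10 of 14 cases (12 without the 2 arrays), with a median of 1.13. Besides Vpreb1 they included Igll1, its partner in the surrogate light chain, which rose by 1.40 (SE 0.14, limma adjusted p = 4.06e-05), and Cd79a and Cd79b, the signalling chains of the B cell receptor, which rose by 1.95 and 1.48. The rise of Cd79a was 2.53 without and 1.25 with poly-A transcripts. The B lineage factor gene Ebf1, which cells of connective tissue also express, was among the 4 that did not pass, at 9.77 ± 0.46 at P7 and 10.05 ± 0.46 at P3 (SD, n = 6 each).

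Red cell genes rose in 13 of 19 cases (14 without the 2 arrays), with a median of 1.29 that was 1.67 on arrays without and 0.96 on arrays with poly-A transcripts. Klf1, the master regulator of adult red cell genes, lay at 8.14, 8.99 and 9.63 at P7, against 6.16, 6.61 and 7.36 at P3, with no overlap. It rose by 2.3 (SE 0.24, limma adjusted p = 6.41e-05). Ermap, a red cell surface protein, rose by 2.00, Car1, the red cell carbonic anhydrase, by 1.87, and Slc4a1, the anion exchanger band 3, by 1.67. Alas2, the first enzyme of haem synthesis in red cells, rose by 1.52 and Trim10, needed for late red cell maturation, by 1.49. The globin gene Hba-a1, which has a near-identical copy, did not pass, and its probe set was dim at 4.22 ± 0.76 at P7 and 4.67 ± 0.69 at P3 (SD, n = 6 each).

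Promoter windows of some risen members are shown because they hold the motifs by which the transcription factors of these lineages bind. The windows run from 250 bases before to 50 bases after the start of the RefSeq gene in GRCm38.p6 and are written 5′ to 3′ on the strand of the gene. TTGCNNAA, a motif of the C/EBP factors of myeloid cells, was searched on both strands and shown in capitals in Ngp (chr9:110419558-110419857, + strand) and S100a9 (chr3:90695672-90695971, - strand).
Ngp: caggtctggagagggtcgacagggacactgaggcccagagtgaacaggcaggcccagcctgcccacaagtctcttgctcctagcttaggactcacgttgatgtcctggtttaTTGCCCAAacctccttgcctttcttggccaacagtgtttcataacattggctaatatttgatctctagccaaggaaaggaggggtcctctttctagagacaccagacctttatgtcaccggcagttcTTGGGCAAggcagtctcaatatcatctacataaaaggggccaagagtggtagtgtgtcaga
S100a9: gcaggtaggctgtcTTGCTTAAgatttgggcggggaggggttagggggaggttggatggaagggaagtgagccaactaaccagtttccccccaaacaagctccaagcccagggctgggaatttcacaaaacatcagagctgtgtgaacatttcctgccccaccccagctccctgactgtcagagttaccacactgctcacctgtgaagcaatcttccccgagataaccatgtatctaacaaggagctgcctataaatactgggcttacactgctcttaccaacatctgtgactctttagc
AGATAA, a motif of the GATA factors of red cells, is in capitals in Alas2 (chrX:150547167-150547466, + strand) and Trim10 (chr17:36869324-36869623, + strand), where it is read on the opposite strand.
Alas2: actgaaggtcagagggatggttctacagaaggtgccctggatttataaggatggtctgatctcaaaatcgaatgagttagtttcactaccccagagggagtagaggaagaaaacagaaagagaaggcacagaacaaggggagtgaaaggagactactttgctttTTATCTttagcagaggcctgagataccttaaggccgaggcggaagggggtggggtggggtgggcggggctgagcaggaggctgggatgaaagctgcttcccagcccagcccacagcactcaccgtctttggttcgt
Trim10: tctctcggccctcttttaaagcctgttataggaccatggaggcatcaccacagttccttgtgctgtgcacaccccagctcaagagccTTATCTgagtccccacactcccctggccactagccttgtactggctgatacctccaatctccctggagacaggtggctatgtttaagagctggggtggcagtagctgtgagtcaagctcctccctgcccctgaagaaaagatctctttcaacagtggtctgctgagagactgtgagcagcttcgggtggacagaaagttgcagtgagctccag

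TTGCNNAA was found in 7 of 16 windows of the neutrophil list (43.8%), among them 2 places in Ngp, against 10.8% of all 32851 windows. AGATAA was found in 6 of 16 windows of the red cell list (37.5%), against 11.2% of all windows. All 6 were windows of risen genes, to which 11 of the 16 windows belonged. CCACACCC, the box bound by Klf1, was in 0 of the 16 red cell windows, against 3.6% of all windows. These 3 motifs were chosen after the values of the genes had been seen. Each count describes the letters in these windows and not binding. In the osteoblast list AACCACA, a Runx motif, was in 1 of 16 windows (6.2%), that of Dmp1, against 5.3% of all windows.

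Other immune genes rose in part. MHC class II genes, which present peptides to T cells, rose in 4 of 6 cases, with a median of 1.48 on arrays without and 0.87 on arrays with poly-A transcripts. Cd74, their invariant chain, lay at 8.60, 9.18 and 10.01 at P7, against 6.98, 7.62 and 8.38 at P3, and rose by 1.59 (SE 0.26, limma adjusted p = 0.00122), with differences of 2.24 without and 0.98 with poly-A transcripts. Interferon and MHC class I genes rose in 6 of 24 cases (10 without the 2 arrays), among them Rsad2, an antiviral enzyme, by 1.04, H2-K1 by 1.00 and Irf7, a factor of the interferon response, by 0.87. The rise of H2-K1 was 1.47 without and 0.43 with poly-A transcripts. The H2 genes are near-identical in sequence, so that their probe sets may read more than 1 of them.

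Macrophage genes went both ways, with 3 of 22 higher and 3 lower (5 and 1 without the 2 arrays). Lyz2, the lysozyme of macrophages and neutrophils, rose by 1.41, and Mpeg1, a pore protein of phagocytes, by 1.32. Mrc1, the mannose receptor of resident macrophages, fell by 0.54. Cd163, a scavenger receptor of the same cells, and Cx3cr1, the fractalkine receptor, fell by 0.74 and 0.73, and neither passed without the 2 arrays (limma adjusted p = 0.054 and 0.082). Eosinophil granule genes Prg2, Epx and Prg3 rose by 1.17, 0.85 and 0.59. The mast cell proteases Cma1 and Cpa3 fell by 0.77 and 0.75 on all 12 arrays but did not pass without the 2 arrays (0.098 and 0.10).

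Of 16 osteoblast and osteocyte genes, 10 rose (9 without the 2 arrays) and none fell, and all 16 differences were above 0, with a median of 0.83 in all 12 arrays and of 0.84 in each genotype. Mepe, a matrix phosphoprotein of osteocytes, lay at 10.73, 11.41 and 12.29 at P7, against 8.86, 9.39 and 10.09 at P3. Its arrays did not overlap and it rose by 2.00 (SE 0.32, limma adjusted p = 0.00107), with differences of 1.68 without and 2.75 with poly-A transcripts. Alpl, the alkaline phosphatase of mineralization, rose by 1.62, Ifitm5, an osteoblast membrane protein, by 1.36, and Phex, a phosphate-regulating peptidase of osteocytes, by 1.04. Sost, the sclerostin of osteocytes, rose by 1.48, with 0.79 on arrays without and 2.55 on arrays with poly-A transcripts, and did not pass without the 2 arrays (limma adjusted p = 0.094). The chains of type I collagen were at the top of the scale at both ages and did not pass: Col1a1 was at 14.53 ± 0.14 at P7 and 14.33 ± 0.17 at P3, and Col1a2 at 14.58 ± 0.07 and 14.40 ± 0.19 (SD, n = 6 each).

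Of 17 osteoclast genes, 4 rose (7 without the 2 arrays) and 16 differed upward, with a median of 0.40. Acp5, the tartrate-resistant phosphatase of osteoclasts, rose by 0.78 (SE 0.15, limma adjusted p = 0.00411), and Tnfrsf11b, the decoy receptor osteoprotegerin, by 0.92. Tnfrsf11a, the receptor RANK, and Tcirg1, a proton pump subunit, rose by 0.61 and 0.60 and did not pass without the 2 arrays (0.069 and 0.11). Acp5 lay between 13.12 and 13.83 at P7 and between 12.42 and 13.14 at P3.

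Cartilage genes had differences on both sides of 0. Of 24, 5 rose and 1 fell (4 and 2 without the 2 arrays), with a median of 0.00 that was -0.34 in α9-/- and 0.49 in wild type cochleae, and -0.20 on arrays without and 0.61 on arrays with poly-A transcripts. Ucma, a matrix protein of early chondrocytes, lay at 8.97, 9.38 and 9.83 at P7, against 6.15, 7.21 and 8.19 at P3, and rose by 2.14 (SE 0.37, limma adjusted p = 0.00169). Col11a2 and Col11a1, chains of type XI collagen that the tectorial membrane and cartilage share, rose by 1.62 and 0.79. Sox5, a regulator of chondrocytes, fell by 1.37 (SE 0.19, limma adjusted p = 0.000391).

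Col10a1, the collagen of hypertrophic cartilage, was the most uneven gene of the list. It read 8.09, 13.14 and 7.07 in α9-/- and 8.18, 12.82 and 12.27 in wild type cochleae at P7, against 11.86, 7.59 and 10.65 in α9-/- and 6.04, 12.09 and 10.51 in wild type cochleae at P3. Pools of the same age and genotype thus lay up to several log2 units apart, and no difference between the ages could be measured (0.47, SE 1.29). Whether differences in the dissected pieces lie behind this spread was not tested.

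Of 35 other matrix genes, 4 rose and 10 fell (5 and 11 without the 2 arrays). Col4a3 and Col4a4, chains of a specialised basement membrane network, rose by 1.54 and 1.64. The rise of Col4a3 was 2.34 without and 0.84 with poly-A transcripts. Col4a4 lay at 8.19, 8.75 and 9.20 at P7, against 6.67, 7.04 and 7.44 at P3, with no overlap (SE 0.19, limma adjusted p = 0.000116). Col14a1, a collagen of loose connective tissue, fell by 1.08, Nid2, a basement membrane linker, by 0.85, and Fbln5, an elastic fibre protein, by 0.82.

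Of 11 tectorial membrane and otic secreted genes, 5 rose and 2 fell (4 and 3 without the 2 arrays). Ucma and Col11a2, described above with the cartilage genes, were also counted here among those that rose. Tecta, α-tectorin, the main non-collagen protein of the tectorial membrane, lay at 8.23, 8.52 and 8.76 at P7, against 10.23, 10.93 and 11.26 at P3. Its arrays did not overlap and it fell by 2.38 (SE 0.17, limma adjusted p = 4.07e-06), a level 5.2-fold higher at P3. Tectb, its partner β-tectorin, differed by -0.42 and did not pass (limma adjusted p = 0.0634), nor did Otog, otogelin, at -0.20. Oc90, an otoconial protein of the otic epithelium, fell by 1.28. Emilin2, an elastin microfibril protein, and Umodl1, a uromodulin-like protein, rose by 2.02 and 1.94. Their differences were 2.90 and 2.71 on arrays without poly-A transcripts, and 0.92 and 0.95 on arrays with them. Over the 4 ages Tecta averaged 10.89 ± 0.35 at P3, 8.51 ± 0.20 at P7, 7.19 ± 0.23 at P13 and 7.11 ± 0.22 at P60 (SD, n = 6 each).

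Of 20 genes of the fibrocytes and limbus, 2 rose and 5 fell (1 and 6 without the 2 arrays). Beside Otos, Coch, cochlin of the spiral ligament, rose by 0.76, with P7 arrays between 10.53 and 11.13 and P3 arrays between 9.01 and 10.61, and did not pass without the 2 arrays (limma adjusted p = 0.052). Crym, μ-crystallin, which binds thyroid hormone in the cytosol, lay at 8.54, 8.75 and 9.23 at P7, against 10.52, 11.22 and 11.47 at P3. It fell by 2.32 (SE 0.18, limma adjusted p = 6.86e-06) with no overlap. Otos and Crym, both genes of spiral ligament fibrocytes, therefore moved in opposite directions by more than 2 log2 units each. Tgfbi, a matrix adhesion protein, fell by 0.90, Dkk3, a Dickkopf family protein, by 0.83, Tbx18, a regulator of otic mesenchyme, by 0.69 and Otor by 0.40.

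**Figure D4:**
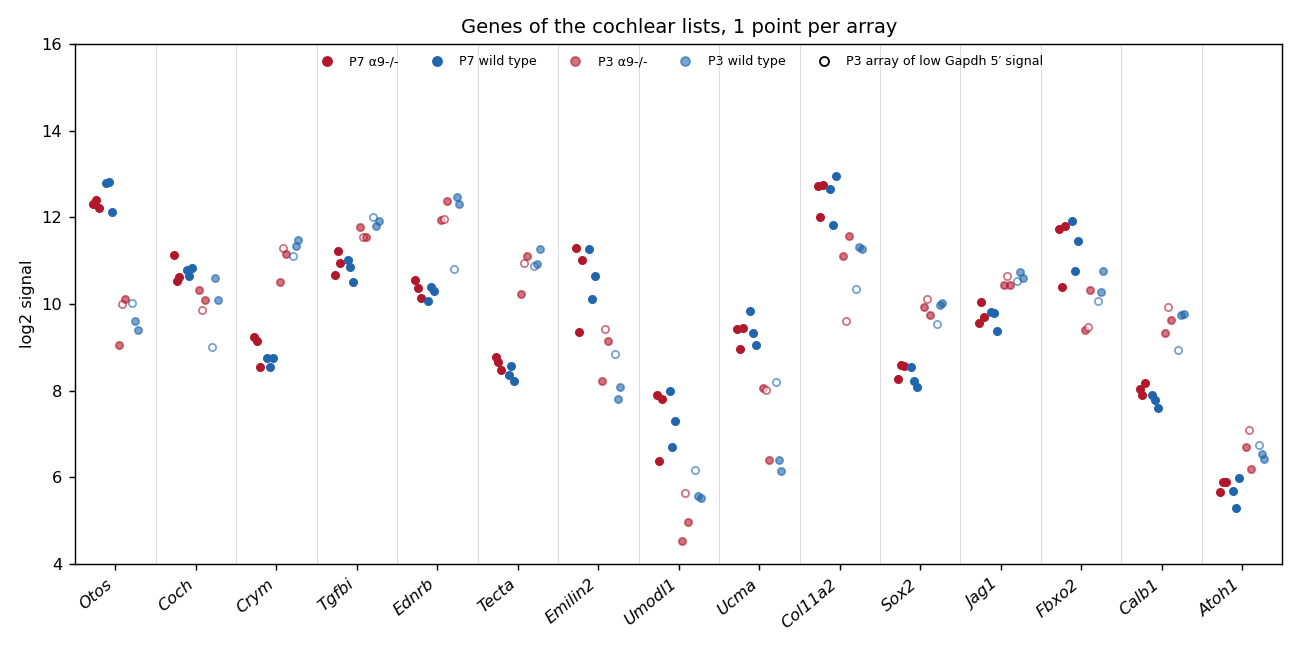
Signal (log2) of 15 genes of the cochlear lists, 1 point per array, with P7 points left of P3 points and the 2 P3 arrays of low Gapdh 5′ signal drawn open. Otos rose by 2.74, whereas Tecta and Crym fell by 2.38 and 2.32, with no overlap between the ages in any of the 3.

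Of 37 hair cell genes, none rose and 4 fell (3 without the 2 arrays), with a median of -0.14. The fallen share, 10.8%, was near the 7.85% of all genes. Calb1, the calcium buffer calbindin of immature hair cells and of neurons, lay at 7.60, 7.90 and 8.17 at P7, against 8.92, 9.68 and 9.93 at P3. It fell by 1.65 (SE 0.16, limma adjusted p = 3.68e-05) with no overlap. Atoh1, the factor that starts hair cell differentiation, lay at 5.29, 5.78 and 5.98 at P7, against 6.19, 6.61 and 7.09 at P3, and fell by 0.88 (SE 0.16, limma adjusted p = 0.00294). Eps8, an actin regulator of the hair bundle, fell by 0.58, and Lhfpl5, a part of the transduction channel complex, by 0.63, which did not pass without the 2 arrays (0.094). Myo7a, a bundle motor, differed by 0.06 (SE 0.17) and Otof, the synaptic calcium sensor otoferlin, by -0.46 (SE 0.21), and neither passed. Prestin, Slc26a5, the motor of outer hair cells, was dim at both ages, at 4.40 ± 0.19 at P7 and 4.54 ± 0.30 at P3 (SD, n = 6 each). Among 11 outer hair cell genes, Kcnn2, the SK2 potassium channel that works with the α9 receptor, fell by 0.66 and Stxbp2, a vesicle docking protein, rose by 0.47.

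Supporting cell and Notch genes fell in 8 of 36 cases and rose in 1, or in 4 without the 2 arrays, where 8 fell. Sox2, the prosensory factor that supporting cells keep, lay at 8.09, 8.41 and 8.59 at P7, against 9.53, 9.95 and 10.12 at P3. It fell by 1.5 (SE 0.13, limma adjusted p = 1.99e-05), and its arrays did not overlap. Of the Notch ligands, Jag1 fell by 0.85 (SE 0.13, limma adjusted p = 0.000681) and Dll3 by 0.99 (SE 0.20, limma adjusted p = 0.00437), and of the Notch targets Hes5 fell by 0.59. Lgr5, a Wnt coreceptor of progenitor-like supporting cells, fell by 0.63. Slc1a3, the glutamate transporter GLAST of supporting and satellite cells, fell by 1.14. The member that rose with all 12 arrays was Fbxo2, a ubiquitin ligase adaptor of the cochlear epithelium, by 1.30 (1.65 without and 0.55 with poly-A transcripts).

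Genes of the stria vascularis, the epithelium that secretes potassium, gave 1 of 21 higher and 2 lower (2 and 4 without the 2 arrays). Car2, a carbonic anhydrase that osteoclasts and red cells also express, rose by 0.84, and Atp6v1b1, a proton pump subunit, fell by 0.58 at a dim level. The potassium secretion genes Kcnq1 and Kcne1 differed by -0.11 (SE 0.15) and -0.12 (SE 0.21) and did not pass. Melanocyte genes fell in 3 of 14 cases (2 without the 2 arrays, where 1 rose), led by Ednrb, the endothelin receptor of the lineage and of glia, which fell by 1.67 (SE 0.24, limma adjusted p = 0.000459). Of 11 connexins, Gja1, connexin 43, rose by 0.51 and Gjb1, connexin 32 of myelinating cells, by 0.87, while Gjc1 and Gjd2 fell by 0.80 and 0.63. The Gjb1 call was lost without the 2 arrays (limma adjusted p = 0.082), where 1 connexin rose and 3 fell. Of 22 tight junction genes 3 fell (4 without the 2 arrays, where 1 rose), among them Cldn6, a claudin of embryonic epithelia, by 1.06. The list median was 0.15 on arrays without and -0.47 on arrays with poly-A transcripts.

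Neuronal genes fell widely. Of 36 genes of spiral ganglion neurons, the neurons that join hair cells to the brain, 19 fell (21 without the 2 arrays) and none rose, with a median of -0.63. The mean level of the list was between 8.01 and 8.61 on the P7 arrays, against 8.91 and 9.52 on the P3 arrays. Neurod1, a neuronal differentiation factor, fell by 2.98 beside Dcx, with differences of -3.99 without and -2.72 with poly-A transcripts. Gap43, the growth cone protein, lay at 6.84, 7.15 and 7.90 at P7, against 8.07, 9.28 and 9.88 at P3, and fell by 2.00 (SE 0.21, limma adjusted p = 6.41e-05). Map2, a dendritic microtubule protein, fell by 1.66, and Prph, the peripheral filament peripherin, by 1.51, with differences of -0.54 without and -2.16 with poly-A transcripts. Nefl, the light neurofilament, was at 11.28 ± 0.31 at P7 and 11.86 ± 0.46 at P3 (SD, n = 6 each) and did not pass (limma adjusted p = 0.0925). The median of the list was -0.42 on arrays without and -1.19 on arrays with poly-A transcripts.

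Channel and receptor genes of neurons fell with them. Of 11 sodium channel subunits 8 fell, with a median of -0.80 that was -0.49 on arrays without and -1.21 on arrays with poly-A transcripts. Scn9a, a channel of peripheral neurons, lay at 4.83, 4.98 and 5.24 at P7, against 6.66, 7.13 and 7.57 at P3, and fell by 2.12 (SE 0.16, limma adjusted p = 4.75e-06). Scn7a, a sodium sensor channel of glia, fell by 1.89, with differences of -1.15 without and -2.90 with poly-A transcripts. Scn3b, a beta subunit, fell by 1.88, Scn11a, a channel of sensory neurons, by 1.73 and Scn8a, the channel of nodes of Ranvier, by 0.80. Scn4b, a beta subunit of mature neurons, was the 1 member above 0, at 0.75, and did not pass (limma adjusted p = 0.0619). It passed without the 2 arrays, at 1.00 (limma adjusted p = 0.018), where 8 members fell and it was the 1 that rose.

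Of 32 potassium channel genes 11 fell and 1 rose (9 and 2 without the 2 arrays), with a median of -0.39 that was -0.01 on arrays without and -0.66 on arrays with poly-A transcripts. Those of the A-type current led. Kcnd2 lay at 5.04, 5.34 and 6.03 at P7, against 6.89, 7.00 and 8.17 at P3, and fell by 1.84 (SE 0.18, limma adjusted p = 3.54e-05). Kcnip4, a subunit that modulates these channels, fell by 1.71 and Kcnd3 by 1.13. The difference of Kcnip4 was -1.19 without and -2.42 with poly-A transcripts. Kcnq3, a subunit of the M-current, fell by 0.85.

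GABA genes had the lowest list median, -1.45, with 9 of 15 lower (11 without the 2 arrays) and none higher. Their mean level was between 5.07 and 5.24 on the P7 arrays, against 6.02 and 7.02 on the P3 arrays. The receptor subunit Gabra2 lay at 3.29, 3.58 and 4.41 at P7, against 5.35, 5.81 and 6.82 at P3, and fell by 2.24 (SE 0.21, limma adjusted p = 2.53e-05). Of the enzymes that make GABA, Gad1 fell by 2.24 and Gad2 by 2.04. The median was -0.93 on arrays without and -1.49 on arrays with poly-A transcripts. In the nicotinic receptor list 1 of 15 members fell, Chrna7, the α7 subunit, by 1.80 (SE 0.21, limma adjusted p = 0.000103). A list of 21 glutamate receptor genes, added after the values had been seen, gave 10 lower (11 without the 2 arrays) and none higher. Gria1 and Gria2, subunits of AMPA receptors, fell by 2.29 and 2.06, and the metabotropic receptor Grm3 fell by 2.31. In a list of 10 genes of neurotrophins, other neurotrophic factors and their receptors, 3 fell (4 without the 2 arrays). These were the receptor genes Ret, Gfra2 and Ntrk3, by 1.85, 1.18 and 0.99, of which only Ntrk3 is a neurotrophin receptor. The median of that list was -0.17 on arrays without and -0.91 on arrays with poly-A transcripts, and the difference of Ret was -1.06 and -2.46.

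In each of 3 glial lists more members fell than rose. Of 13 astrocyte genes 7 fell and 1 rose, with a median of -0.34 on arrays without and -0.99 on arrays with poly-A transcripts. Fabp7, a fatty acid binding protein of immature glia, lay at 10.24, 10.42 and 10.74 at P7, against 11.79, 12.31 and 12.55 at P3, and fell by 1.82 (SE 0.12, limma adjusted p = 2.58e-06), with no overlap. Aqp4, a water channel of astrocytes and of cochlear supporting cells, fell by 1.63, and Mlc1, a membrane protein of astrocyte endfeet, by 1.60. Among 11 genes of the oligodendrocyte lineage Olig2, Olig1 and Nkx2-2, its transcription factors, fell by 1.75, 1.19 and 0.99, and 4 members fell in all (5 without the 2 arrays). The difference of Olig2 was -1.35 without and -2.37 with poly-A transcripts. Among 20 Schwann cell genes 2 rose and 4 fell (1 and 4 without the 2 arrays), and the list median was 0.30 on arrays without and -0.57 on arrays with poly-A transcripts. Dhh, the hedgehog signal of Schwann cells, fell by 0.80 and Erbb3, the neuregulin receptor, by 0.83, whereas Ncmap, a protein of noncompact myelin, rose by 0.60. The myelin genes Mbp and Cnp were at 13.19 ± 0.19 and 12.70 ± 0.13 at P7 and at 13.01 ± 0.51 and 12.93 ± 0.41 at P3 (SD, n = 6 each) and did not pass.

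Genes named for tissues outside the cochlea moved in the same comparison. Of 13 choroid plexus genes, a list added after the values had been seen, 7 fell and all 13 differences were below 0, with a median of -0.78. Ttr, transthyretin, which that epithelium makes in bulk, lay at 8.53, 9.15 and 12.04 at P7, against 11.91, 13.33 and 13.93 at P3, and fell by 3.61 (SE 0.53, limma adjusted p = 0.000582). P7 wild type replicate 1, at 12.04, overlapped the P3 arrays. Otx2, a factor of forebrain and choroid plexus, fell by 1.84 and Kcne2, a channel subunit of that epithelium, by 1.72. Of 12 forebrain neuron genes, also added, 7 fell (5 without the 2 arrays, where 1 rose), with Eomes, Dlx1, Lhx2 and Bcl11b falling by between 1.01 and 1.88 beside Neurod6. The difference of Eomes was -1.16 without and -2.75 with poly-A transcripts. Of 22 cerebellar and hindbrain genes 4 fell and 1 rose, among them Pax6 and Cbln1, which fell by 1.88 and 1.41. Neurod1 and Calb1, described above with the spiral ganglion and hair cell genes, were also counted here among those that fell. The mean level of the choroid plexus list was between 6.50 and 6.88 on the P7 arrays, against 7.37 and 8.02 on the P3 arrays. That of the forebrain list was between 5.36 and 5.84 against 6.06 and 7.28, and that of the cerebellar list between 5.84 and 6.44 against 6.21 and 6.85. The part of these tissues in the fall of the neuronal, GABA, glutamate and astrocyte genes was not tested.

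Pituitary hormone genes were uneven among the P3 pools. Gh, growth hormone, lay between 6.08 and 6.75 at P7, whereas at P3 it read 7.52, 8.95 and 10.34 in α9-/- and 6.38, 12.68 and 10.30 in wild type cochleae, above every P7 array on 5 of 6 arrays. Cga and Pomc, precursors of other pituitary hormones, fell with it, by 2.64 and 1.57 against 2.98 for Gh. The difference of Pomc was -2.13 without and -1.08 with poly-A transcripts. The remaining 8 of the 11 genes of this list, which was added after the values had been seen, did not pass.

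Skeletal muscle genes fell in 4 of 37 cases, and in none without the 2 arrays. The mean level of the list was between 6.97 and 7.57 on the P7 arrays. At P3 it was 9.56 on α9-/- replicate 3 and 9.16 on wild type replicate 1, and between 7.01 and 7.75 on the other arrays, so that 2 pools stood apart. Myh3 and Myh8, the embryonic and perinatal myosins, fell by 2.26 and 2.19, and Neb, nebulin of the thin filament, by 1.64, with limma adjusted p of 0.0254, 0.0384 and 0.0333 that were 0.061, 0.064 and 0.067 without the 2 arrays. The 2 P3 pools that stood apart were on arrays with poly-A transcripts. The median of the list was 0.09 on arrays without and -1.52 on arrays with poly-A transcripts. Between these sets the differences were -0.54 and -3.31 for Myh3, -0.49 and -3.01 for Myh8, and -0.37 and -2.42 for Neb. In the keratinocyte list 1 of 21 genes rose, Krt6a by 0.90, and its call was lost without the 2 arrays (limma adjusted p = 0.094). The median of that list was 0.40 on arrays without and -0.24 on arrays with poly-A transcripts.

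**Figure D5:**
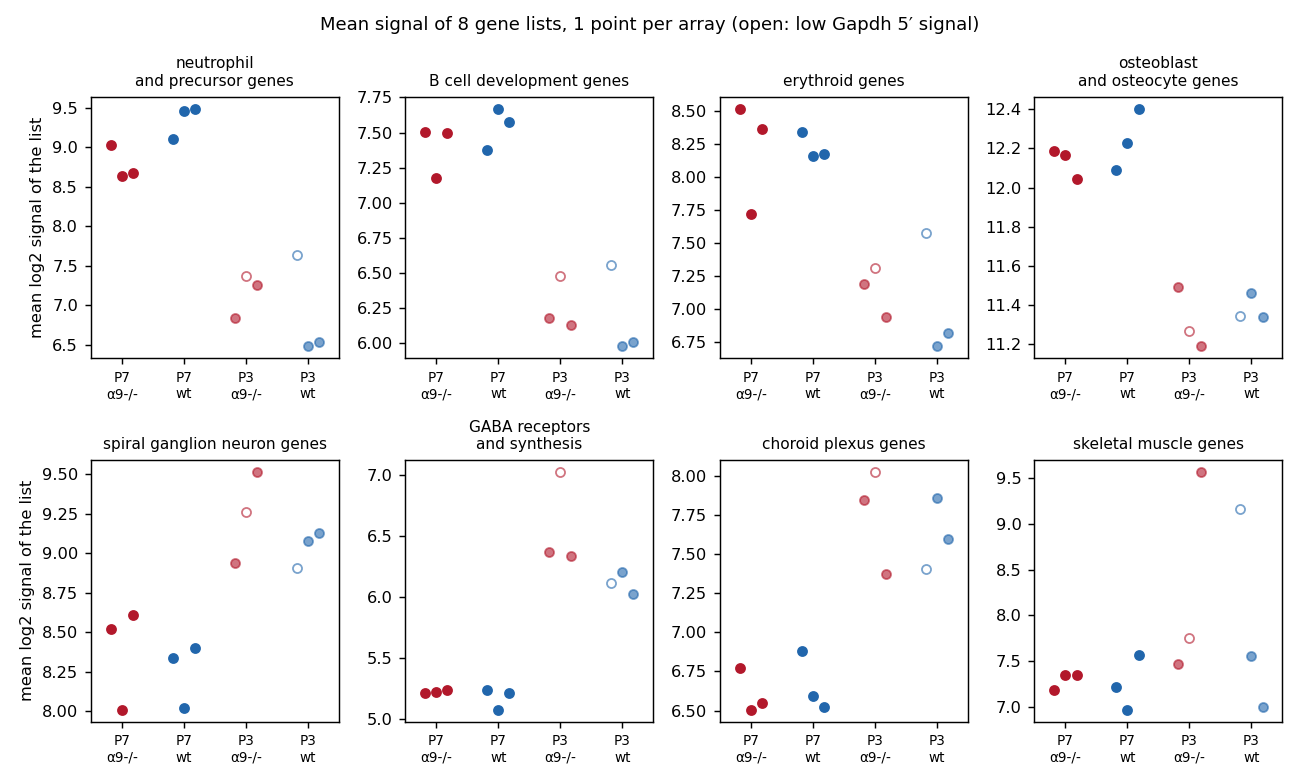
Mean log2 signal of 8 gene lists, 1 point per array, with the P7 groups left of the P3 groups and the 2 P3 arrays of low Gapdh 5′ signal drawn open; each panel has its own axis. The neutrophil, B cell, erythroid and osteoblast lists lie higher on every P7 array than on any P3 array, the spiral ganglion, GABA and choroid plexus lists lie lower, and the muscle list stands at 9.56 and 9.16 on 2 P3 arrays.

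Signalling genes changed member by member. In the Wnt pathway 6 of 43 genes were higher and 8 lower (8 and 9 without the 2 arrays), and secreted inhibitors were on both sides. Wif1 rose by 2.08 with P3 arrays between 7.03 and 10.41, and its rise was 1.16 without the 2 arrays, and 0.93 on arrays without and 2.90 on arrays with poly-A transcripts. Dkk1 rose by 1.24, while Dkk2 fell by 1.92 (SE 0.21, limma adjusted p = 7.68e-05) and Sfrp1 by 1.11. In the TGF-β and BMP pathway 6 of 38 were higher and 4 lower (8 and 6 without the 2 arrays). The ligand Tgfb1 rose by 1.82 (SE 0.36, limma adjusted p = 0.00436) and the decoy receptor Bambi by 0.84, while the inhibitor follistatin, Fst, fell by 0.81 and the receptor Acvr2a by 0.78. In the FGF pathway 2 of 23 changed, the ligand Fgf1 rising by 0.90 and the ligand Fgf18 falling by 1.07, and without the 2 arrays 1 rose and 2 fell. The difference of Fgf18 was -0.62 without and -1.83 with poly-A transcripts.

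Axon guidance genes changed in 19 of 40 cases, 7 higher and 12 lower (11 and 12 without the 2 arrays). Of 6 Eph receptors in the list 4 fell and none rose. Epha7 lay at 8.19, 8.84 and 9.32 at P7, against 10.04, 10.43 and 10.75 at P3, a fall of 1.67 (SE 0.20, limma adjusted p = 0.000123). Epha5 and Epha4 fell by 1.27 and 1.03. Unc5b, a netrin receptor that vessels also use, rose by 1.00 and the semaphorin Sema4d, which osteoclasts and lymphocytes make, by 0.96. Of 10 semaphorins in the list 3 rose and 4 fell. Of 7 ephrins, the ligands of Eph receptors, none rose and 2 fell (1 and 2 without the 2 arrays).

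Thyroid hormone acts on the cochlea in this week. Slco1c1, a transporter of the hormone, lay at 9.52, 9.81 and 10.53 at P7, against 8.14, 8.75 and 9.36 at P3, and rose by 1.18 (SE 0.21, limma adjusted p = 0.0023). Dio2, the deiodinase that activates the hormone, rose by 0.61, and Hr, a corepressor that the hormone induces, by 1.28, with 2.14 on arrays without and 0.47 on arrays with poly-A transcripts. With Crym, which fell, these were the 4 of 11 members of the list that changed, and without the 2 arrays 5 rose and 2 fell.

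Of 47 cell cycle genes 1 rose (3 without the 2 arrays), Cdc6, a loader of the replicative helicase, by 1.00 (SE 0.13, limma adjusted p = 0.000234), and none fell. Mki67 and Top2a, marks of dividing cells, differed by 0.22 (SE 0.16) and 0.01 (SE 0.11). The promoter motif CCAAT was in 30 of 41 windows of this list (73.2%), against 37.4% of all windows, TTTGAA of the cell cycle homology region in 46.3% against 17.9%, and TTCCCGC, read by E2F factors, in 24.4% against 4.6%, the window of Cdc6 among them. The cell cycle inhibitor gene Cdkn1a rose by 0.80 and Cdkn1c fell by 0.54, in a list of 11 of which, without the 2 arrays, 1 rose and 3 fell. Of 15 imprinted growth genes 4 fell (26.7%, and 6 without the 2 arrays), led by the neuronal gene Nnat, by 1.33, and the noncoding RNA Meg3, by 1.31 (SE 0.18, limma adjusted p = 0.000316). Igf2, a fetal growth factor, was at 13.46 ± 0.12 at P7 and 13.56 ± 0.41 at P3 (SD, n = 6 each) and did not pass. Hmga2, a chromatin protein of fetal tissue, fell by 1.32 (SE 0.21, limma adjusted p = 0.000868).

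Of 16 glucocorticoid and stress genes 6 rose (37.5%, and 8 without the 2 arrays), among them Zbtb16, by 1.09, and the metallothioneins Mt2 and Mt1, by 0.90 and 0.81, and 1 fell. Of 29 vascular genes 5 rose and 1 fell (8 and 1 without the 2 arrays). Esm1, a secreted product of sprouting endothelium, lay at 6.72, 7.17 and 7.31 at P7, against 4.63, 5.62 and 5.71 at P3, and rose by 1.72 (SE 0.19, limma adjusted p = 8.06e-05). Eng, endoglin, and Plvap, a protein of fenestrated vessels, each rose by 0.96, and Sox17, an arterial factor, fell by 0.55. Timp1, a metalloprotease inhibitor, rose by 1.18 with no overlap.

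No member of 3 further lists passed. None of 49 respiratory chain genes, 34 ribosomal protein genes or 19 clock genes was called by limma with all 12 arrays. Of all genes, 5.56% were called higher and 7.85% lower. With 19 members, the absence of calls in the clock list weighs little. Cox6a1 of complex IV was at 13.57 ± 0.07 at P7 and 13.54 ± 0.15 at P3, Rpl38 of the ribosome at 13.94 ± 0.06 and 13.93 ± 0.20, and the clock gene Nr1d2 at 10.62 ± 0.15 and 10.50 ± 0.17 (SD, n = 6 each). Without the 2 arrays 2 clock genes were called higher.

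The change with age was then taken within each genotype. In α9-/- cochleae 222 genes were higher at P7 (1.22%) and 521 were lower (2.86%), and in wild type cochleae 221 were higher (1.21%) and 355 were lower (1.95%). All 1011 genes that rose and all 1428 that fell over both genotypes had a difference of the same sign in each of them, which calls made over both genotypes favour. Single pools moved these counts by more than 1.5 times. The counts of α9-/- cochleae were 87 and 93 higher without P7 replicates 1 and 3, 262 lower without P3 replicate 2, and 323, 307 and 290 lower without P7 replicates 1, 2 and 3. Those of wild type cochleae were 345, 78 and 82 higher without P3 replicates 1, 2 and 3, and 102 and 93 higher without P7 replicates 2 and 3. Lower genes of wild type cochleae were 121 and 123 without P3 replicates 2 and 3, and 117 and 113 without P7 replicates 2 and 3.

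The change with age differed between the genotypes for 1 gene (0.00550%), Galc, the lysosomal galactosylceramidase that breaks down myelin lipid. At P7 it read 8.31, 7.33 and 8.06 in α9-/- cochleae and 7.67, 7.43 and 7.59 in wild type cochleae. At P3 it read 4.51, 4.65 and 4.38 in α9-/- cochleae and 7.68, 8.30 and 7.10 in wild type cochleae. The difference between P7 and P3 was 3.39 in α9-/- and -0.13 in wild type cochleae, and the gap between them was 3.52 (SE 0.42, limma adjusted p = 0.0353). The levels at P3 were low on all 3 α9-/- arrays and did not overlap any other array of the comparison. The call was lost without the 2 arrays, with the values as deposited, and when any of 10 of the 12 arrays was left out (all but P3 wild type replicate 3 and P7 α9-/- replicate 2). At an unadjusted p under 0.05, 237 genes (1.3%) differed between the genotypes in their change with age, by limma.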

How the data were processed

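Total RNA of pooled cochleae was labelled with biotin and hybridised to Affymetrix mouse arrays, 3 per age and genotype, 24 in all, of which the 12 of P7 and P3 were compared. The deposited log2 values had been made by the authors with RMA background correction, quantile normalization and a Tukey biweight summary of each probe set in AffyPLM. Their limma version is not given in the sources. Medians of the deposited values lie between 6.57 and 6.63 at P7 and between 6.49 and 6.61 at P3, and scaling over all ages and genotypes at once is stated for the map clustering of the study but not for the deposited values, so these were normalized again by quantiles over all 24 arrays. Of 45101 probe sets, 34958 name 1 gene in the platform annotation, 932 name several, 9211 were left unnamed, and 64 were control probe sets. Each gene was read from its probe set of highest mean over the 24 arrays among those naming 1 gene, which left 18193 genes.

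The test between P7 and P3 was that of limma (version 3.58.1, R version 4.3.3, lmFit and eBayes) with genotype as a block, Benjamini-Hochberg adjusted over all genes and called at an adjusted p under 0.05. Genotypes were compared in their change with age in a fit of the 4 groups. A rise or a fall is a difference on the log2 scale. Probes differ in brightness, so that a level set against the median gene, or called dim, is only a rough guide. The number of arrays limits the precision. Python 3.11.15 with numpy 2.4.6, pandas 2.3.3 and matplotlib 3.10.9 was used for lists, motifs and figures. The script was tested on simulated data. Arrays with a poly-A control signal above 8 on the log2 scale were counted as having poly-A transcripts, and all others as without them, whatever their signal below 8.

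The comparison and the gene lists were chosen with earlier results of these data known. Genes were named by rule: the 10 of largest difference in each direction among called genes with no overlap of the arrays that were also called without P3 wild type replicate 1 and P3 α9-/- replicate 2 (clones, predicted genes and immunoglobulin segments passed over), up to 5 called members of each list by size of difference (the brightest member where none was called), genes whose change with age differed between genotypes, and the cell type markers. Chosen after their values were seen were Alas2, Trim10, Camp, Mpo, Hba-a1, Mmp9, Ebf1, Dmp1, Col1a1, Col1a2, Col10a1, Oc90, Lgr5, Hes5, Slc26a5, Chrna9, Scn4b, Mbp, Cnp, Mki67, Top2a and Igf2, the Eph receptor, ephrin and semaphorin families within the axon guidance list, as well as the lists of choroid plexus, pituitary, forebrain and glutamate receptor genes. Alternatives were other scalings, probe set choices, filters, weights, blocks for poly-A presence and replicate number, and the removal of single arrays.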

Additional observations from a re-analysis of the deposited data

Results flagged for a closer look

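Within the 6 arrays of an age, 598 sets of values were checked for an array far from the nearest of the others, and 32 were flagged (5.4%). Chance flags about 1 in 20 such sets. The array most often apart was P3 α9-/- replicate 2, in 9 sets.

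At P7 the array apart was high for Pcdh8 (5.75), Gap43 (7.90) and Gabra2 (4.41) in α9-/- replicate 2, for Neurod1 (7.41) and Pax6 (5.96) in α9-/- replicate 3, for Sostdc1 (9.05) in α9-/- replicate 1, for Sema4d (11.21) in wild type replicate 3, for Prg3 (5.66) in wild type replicate 2 and for Ttr (12.04) in wild type replicate 1. It was low for Grik1 (3.49) in α9-/- replicate 1 and for Kcnq3 (7.07) and Calml4 (8.20) in wild type replicate 3. Mean levels of the keratinocyte list (6.24) and of the cerebellar list (6.44) were high in α9-/- replicate 3, and that of the GABA list was low (5.07) in wild type replicate 2.

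At P3 the values apart in α9-/- replicate 2 were high for Olig2 (7.11), Kcnn2 (7.34), Met (9.67), Kcnip4 (7.48), Kcnd3 (8.65), Adamts12 (10.62), Calml4 (10.45) and the mean of the GABA list (7.02), and low for Zbtb16 (6.32). In α9-/- replicate 1 Crym (10.52), Cnp (12.15), Mbp (12.04) and Col1a1 (14.01) were low. In wild type replicate 1 Nid2 (9.91), Ednrb (10.80) and Otx2 (5.00) were low, and in wild type replicate 2 Stxbp2 (7.46) was low. P3 wild type replicate 1 and P3 α9-/- replicate 2 are the arrays of low Gapdh 5′ signal.

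The change of Galc with age differed between the genotypes by 3.52 on the log2 scale (α9-/- minus wild type, limma adjusted p = 0.0353). Over the later ages Galc was not steady within a genotype. It read 7.58, 4.54 and 4.60 in α9-/- and 5.06, 8.79 and 8.88 in wild type cochleae at P13, and 4.52, 4.52 and 6.78 in α9-/- and 9.01, 8.0 and 8.87 in wild type cochleae at P60.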

How the results depend on the processing

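Of 210 genes named and called, 187 were called when the 2 arrays of low Gapdh 5′ signal were left out, 200 with the values as deposited, 169 with the mean of all probe sets of a gene, 168 with poly-A presence as a block, 146 on arrays without and 71 on arrays with poly-A transcripts (6 arrays each) and 197 with the replicate block, and none changed direction in any alternative. Leaving out single arrays kept between 169 and 197 of them. The alternatives drew on the arrays that gave the calls, which favours an unchanged direction. The 1011 higher genes became 1677 without the 2 arrays, 1623 as deposited, 649 among genes above the median signal (fewer genes tested), 2389 with array weights, 1746 with the Gapdh gap as a covariate, 100 on the arrays with poly-A transcripts and 89 beyond a log2 difference of 1.5, and 663 to 1207 with single arrays left out. The 1428 lower genes became 786 above the median signal, 701 on arrays without and 386 on arrays with poly-A transcripts and 146 beyond 1.5, and 1097 to 1448 with single arrays left out. In α9-/- cochleae the 222 higher genes became 365 with array weights and 120 with the replicate block (87 to 320 with single arrays left out), and the 521 lower genes became 276 with the replicate block (262 to 640). In wild type cochleae the 221 higher genes became 509 without the 2 arrays, 1315 with array weights and 124 with the replicate block (78 to 345), and the 355 lower genes became 1085 with array weights and 151 with the replicate block (113 to 463). The 1 gene whose change with age differed between genotypes became 0 without the 2 arrays, as deposited, with array weights, with the replicate block and with centred arrays, an alternative added after the data had been seen, and 0 to 1 with single arrays left out. The Gapdh gap of -1.88 became 0.52 without the 2 arrays, which that gap had singled out, and -2.37 to -0.83 with single arrays left out. Sets with fewer arrays or genes have less to test, and the cause of the other shifts was not tested. Replicate numbers did not pair the arrays, since same-numbered P7 and P3 arrays correlated at -0.350, -0.073 and 0.145 in α9-/- and at 0.244, 0.038 and 0.202 in wild type cochleae in their deviations from the group means. Over both genotypes the replicate block gave 1004 higher and 1308 lower genes. Differences of dim genes, with levels under 5 on the log2 scale, rest on signals near the bottom of the range.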

Other observations

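Ttr and Grm5, which fell between P3 and P7, were uneven at the later ages. Ttr averaged 13.11 ± 0.80 at P3, 9.50 ± 1.29 at P7, 11.13 ± 2.00 at P13 and 12.43 ± 2.11 at P60 on the log2 scale, and its P60 arrays ran from 9.93 to 14.38 (SD, n = 6 each). Grm5 averaged 6.67 ± 0.94 at P3, 3.22 ± 0.21 at P7, 4.87 ± 1.74 at P13 and 4.59 ± 1.37 at P60 (SD, n = 6 each). Neither gene continued downward after P7, and P7 was the age of lowest mean level for both. Otos, Ngp, Tecta and Crym kept the direction that they had between P3 and P7 up to P13. Ngp averaged 8.22 ± 0.55 at P3, 11.46 ± 0.35 at P7, 13.39 ± 0.43 at P13 and 13.23 ± 0.25 at P60, and Crym averaged 11.15 ± 0.34, 8.83 ± 0.29, 6.18 ± 0.34 and 6.17 ± 0.57 at the same ages (SD, n = 6 each). Differences with P13 and P60 were not tested here. Col10a1, uneven at P3 and P7, averaged 6.35 ± 1.04 at P13 and 4.67 ± 0.39 at P60 (SD, n = 6 each).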
